A study of Homo sapiens with 12 samples.

Results

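The kinesins are the motor proteins that move along microtubules, and here all protein-coding genes of the family, recognised by a symbol of KIF or KIFC followed by a number, were followed in prostate cancer cells with changed levels of GALNT7. GENCODE release 29 lists 42 such genes, and 41 of them had values for both cell lines among the 59424 identifiers measured. The remaining gene, KIFC1, was read through other identifiers as described below. By textbook role, 14 genes were taken as motors of mitosis and cytokinesis (13 with values), 15 as motors of intracellular transport and 13 as motors of the cilium, of microtubule dynamics or of less studied function. Polyadenylated RNA was measured by RNA-seq in 4 groups of 3 biological replicates, 12 libraries in all, to find genes that respond to GALNT7, an enzyme that starts O-linked glycan chains on proteins. GALNT7 was lowered by an shRNA in CWR22RV1 cells, a prostate cancer line (GALNT7 KD against shControl), and raised by a transgene in DU145 cells, another prostate cancer line (GALNT7 OE against OE control). Both were stable lines made by lentiviral transduction, and each condition is 1 line, so that an effect of GALNT7 and of the history of a line cannot be told apart. The direction of the GALNT7 change and the cell line also differ together.

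Kinesins couple the breakdown of ATP to steps along a microtubule. Most walk towards the plus end, some towards the minus end, and the kinesin-13 members do not walk but take tubulin off microtubule ends. In a dividing cell they push the spindle poles apart, bring chromosomes to the equator and build the midzone where the daughter cells separate. Between divisions other members carry vesicles, mitochondria, lysosomes and messenger RNAs, or move cargo along the cilium. Many mitotic kinesins are made mainly in G2 and M phase, whereas transport kinesins are made throughout the cell cycle and are known best from neurons.

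The targeted gene followed the labels. GALNT7 fell from a normalised count of 999 ± 122 to 461 ± 53.7 in CWR22RV1 cells (SD, n = 3 each; log2 fold change -1.11, limma adjusted p = 0.00512) and rose from 964 ± 75.8 to 2181 ± 176 in DU145 cells (log2 fold change 1.18, limma adjusted p = 7.99e-05). The libraries held 18364512 to 24356910 reads on genes. Among markers of other cell types, CD3E was at 0 in all 12 libraries, PTPRC and RBFOX3 stayed below 3 in each, and the macrophage marker CD68 fell from 2675 to 1035 in DU145 cells (log2 fold change -1.37, limma adjusted p = 1.46e-05).

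In DU145 cells with raised GALNT7, every mitotic kinesin that could be tested was higher than in control cells, while the transport kinesins moved in both directions or did not pass the test. Of 36 kinesin genes tested, 23 passed an adjusted p of 0.05, 17 of them higher and 6 lower, against 43.5% of all 18705 genes tested (22.9% higher and 20.5% lower). All 11 mitotic kinesins tested were higher, with a median log2 fold change of 1.81, where the median of all genes was -0.01. Of 14 transport kinesins, 2 were higher and 2 lower, with a median of -0.01. Among the remaining class, 4 of 11 were higher and 4 lower, with a median of -0.25. Its lower genes include KIF19, which reached the minimum mean of 5 only through its control libraries (mean 17.3, against 3.99 in OE libraries). KIF2A, which also acts at spindle poles, was counted in that class and not as mitotic. It did not pass the test (log2 fold change 0.61, limma adjusted p = 0.0594). The 3 OE libraries did not overlap with the 3 control libraries in 25 of the 36 kinesin genes, among them all 11 mitotic ones, against 55.3% of all genes tested. After rescaling each library to its 75th percentile, 41.6% of all calls were higher instead of 52.8%, and the medians became 1.71 for mitotic and -0.11 for transport kinesins. In bulk RNA, more cells in division and more mRNA per dividing cell cannot be told apart.

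**Figure D1:**
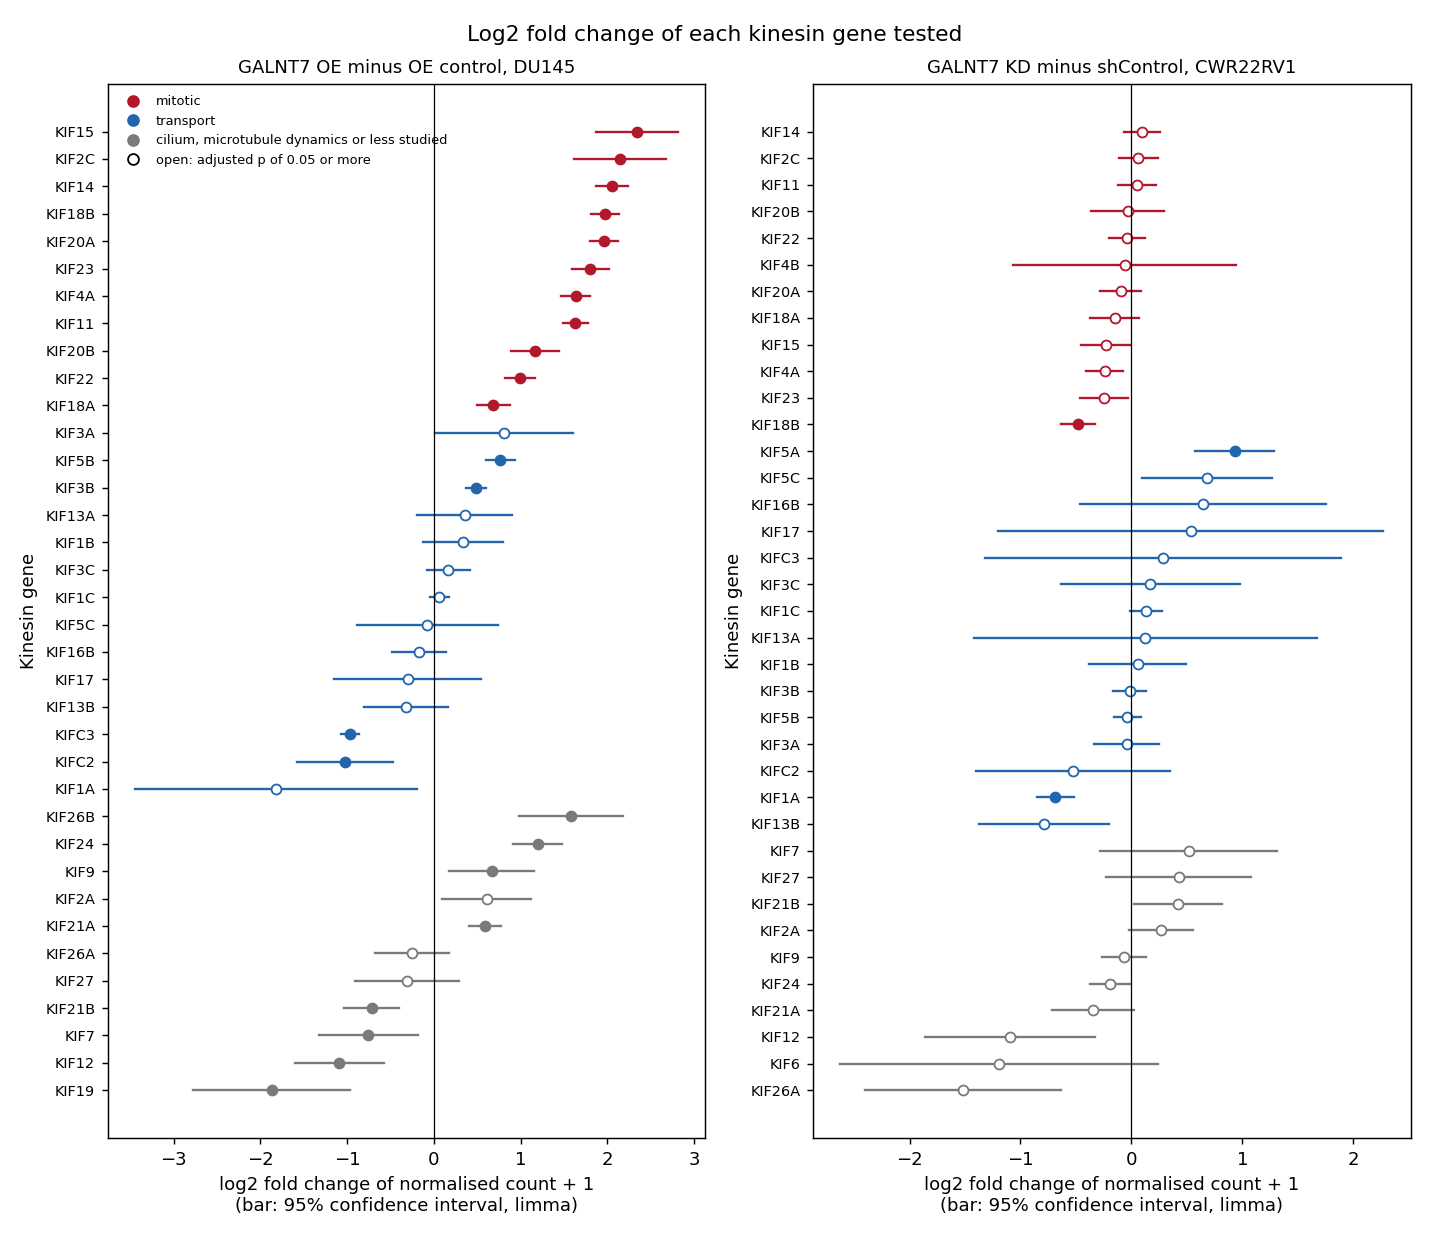
Log2 fold change of each kinesin gene tested, on the scale of log2(normalised count + 1), in DU145 cells (left, GALNT7 OE minus OE control) and CWR22RV1 cells (right, GALNT7 KD minus shControl), with 95% confidence intervals from limma; filled points passed an adjusted p of 0.05. All 11 mitotic kinesins lie to the right of 0 in DU145 cells, and only KIF18B, KIF5A and KIF1A are filled in CWR22RV1 cells.

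Motors that shape the spindle rose together in DU145 cells. KIF11, the kinesin-5 that slides antiparallel microtubules apart to separate the spindle poles, had normalised counts of 1143, 1135 and 1125 in the control and 3283, 3681 and 3611 in the OE libraries. The control libraries differed little from each other (SD 8.57), and the groups were far apart, with a log2 fold change of 1.63 ± 0.06 (SE; limma adjusted p = 4.96e-06). KIF15, a kinesin-12 that can take over pole separation when KIF11 is blocked, had 249, 148 and 168 in control and 952, 1044 and 828 in OE libraries. Its fold change was the largest among the mitotic kinesins (log2 2.34 ± 0.20, limma adjusted p = 0.000151), and its control libraries were spread more widely than those of KIF11. Gene KIF15 (chromosome 3, 44761717 to 44873376 on GRCh38) overlaps TMEM42 on the same strand, and reads in their shared part could have been divided between them.

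KIFC1, a minus-end motor that focuses the spindle poles and clusters extra centrosomes, lacks its annotated identifier in the tables. The sum of 2 other identifiers, which a supplementary gene list pairs with this symbol, was formed after their values had been seen, and KIFC1 is left out of all counts. The sum was 640, 663 and 721 in control and 2204, 2375 and 2092 in OE libraries, a log2 fold change of 1.72 ± 0.08 (limma adjusted p = 9.73e-06). Both identifiers were higher in the OE cells, with log2 fold changes of 1.59 and 2.94.

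The genes KIF2C, KIF18B and KIF18A differed more from each other in size of change than KIF11, KIF15 and KIFC1. KIF2C, a kinesin-13 that takes tubulin off microtubule ends at the centromere and helps to correct wrong attachments, had 646, 408 and 332 in control and 1883, 1994 and 2028 in OE libraries. Its control libraries ranged more widely than those of KIF15, yet none came near the OE libraries (log2 2.14 ± 0.22, limma adjusted p = 0.00037). KIF18B, a kinesin-8 that shortens astral microtubules, had 416, 445 and 443 against 1775, 1648 and 1709, a log2 fold change of 1.97 ± 0.07 (limma adjusted p = 3.81e-06). KIF18A, the related kinesin-8 that dampens chromosome movement at the equator, had 478, 500 and 491 against 732, 789 and 852. The groups of KIF18A did not overlap either, but its log2 fold change of 0.69 ± 0.08 (limma adjusted p = 0.00059) was the smallest among the mitotic kinesins, with an upper 95% limit of 0.88 that lies below the lower limit of 1.82 for KIF18B.

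Both motors that bind chromosome arms were higher. KIF4A, a chromokinesin that also limits the length of the central spindle, had 445, 473 and 485 in control and 1459, 1527 and 1386 in OE libraries (log2 1.64 ± 0.07, limma adjusted p = 8.94e-06). KIF22, the chromokinesin that pushes chromosome arms away from the poles, had 899, 821 and 947 against 1838, 1714 and 1753 (log2 0.99 ± 0.07, limma adjusted p = 7.58e-05). Neither gene had a library in the range of the other group. KIF4B, a copy of KIF4A whose transcript is 95.2% identical over the shorter sequence, fell under the minimum mean of 5 and was not among the genes tested, with 0, 1.02 and 1.01 in control and 4.01, 6.47 and 7.34 in OE libraries. With no filter on low values it was higher too (log2 2.09 ± 0.48, limma adjusted p = 0.0143), which makes 12 mitotic calls. Reads of KIF4A may be among those assigned to KIF4B. KIF2B, another kinesin-13 gene, was at 0 in all 12 libraries.

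The motors of cytokinesis formed a group of large and uniform changes with 1 smaller value. KIF20A, which brings the chromosomal passenger complex to the central spindle, had 799, 914 and 888 in control and 3321, 3341 and 3463 in OE libraries (log2 1.96 ± 0.07, limma adjusted p = 3.92e-06). KIF23, the motor of the centralspindlin complex that bundles the midzone, had 1170, 1224 and 977 against 3809, 3919 and 4015 (log2 1.81 ± 0.09, limma adjusted p = 1.46e-05). KIF14, which recruits citron kinase to the midbody, had 450, 451 and 430 against 1685, 1913 and 1957 (log2 2.06 ± 0.08, limma adjusted p = 6.05e-06). All 3 were raised to more than 3 times the control mean, by factors of 3.89, 3.48 and 4.17. KIF20B, a midbody motor that acts late in abscission, had 558, 653 and 554 against 1169, 1512 and 1287, a factor of 2.25 (log2 1.16 ± 0.12, limma adjusted p = 0.000297).

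**Figure D2:**
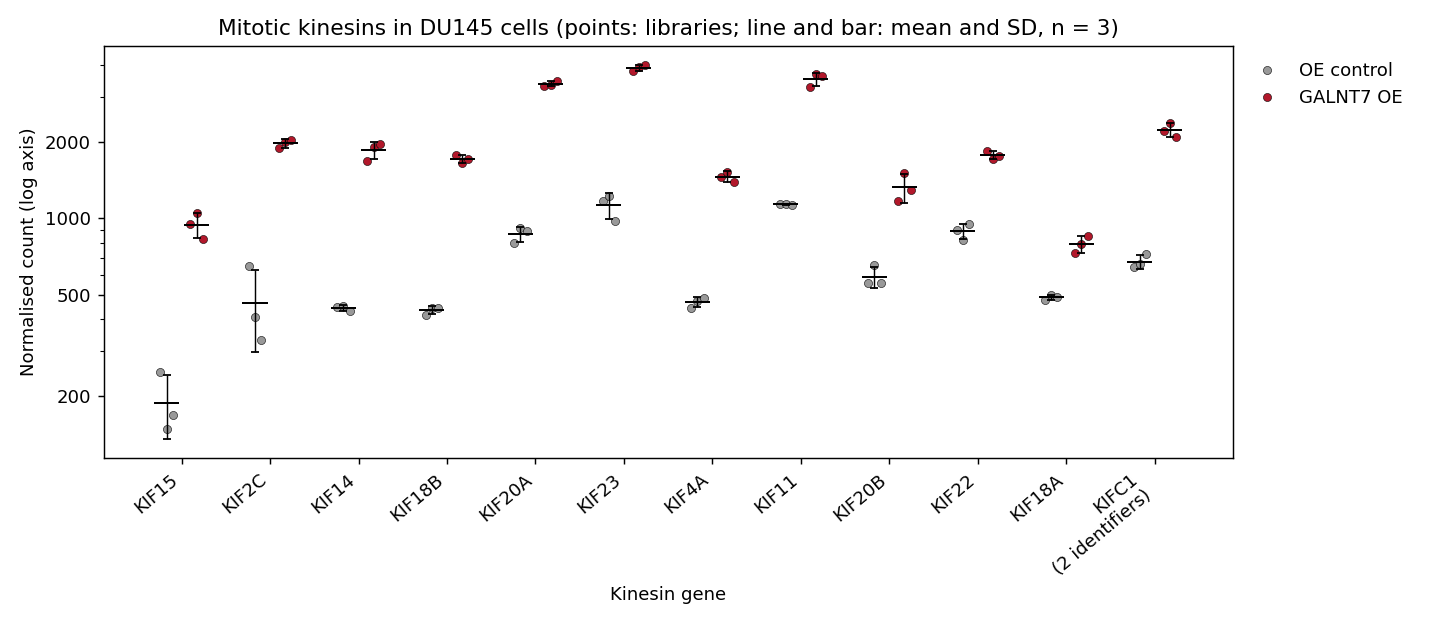
Normalised count of each mitotic kinesin in the 6 DU145 libraries (log axis), with grey points for OE control, red points for GALNT7 OE, and a line and bar for the mean and SD of 3 libraries; KIFC1 is the sum of 2 identifiers. In each gene shown the lowest OE library lies above the highest control library, from KIF18A (500 against 732) to KIF15 (249 against 828).

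The bases just before the start sites of several members are shown, to place the motifs known from mitotic genes beside the values. G2 and M phase genes are known for CCAAT boxes and, closer to the start, for the cell cycle genes homology region (CHR), to which the DREAM and MMB complexes bind. Windows of 250 bases before RefSeq start sites were searched on both strands for CCAAT and for a CHR as TTTGAA or TTCGAA, motifs whose letters do not overlap each other in the windows printed. Promoters were listed for 14 mitotic, 11 transport and 9 other kinesins, and not for KIF13B, KIF19, KIF21B, KIF26B, KIF27, KIF5A, KIFC2 and KIFC3. Of the mitotic genes, 11 of 14 (78.6%) held a CCAAT and 6 of 14 (42.9%) a CHR, against 37.0% and 17.2% of all 27305 genes listed. Both motifs were found in 5 mitotic genes (KIF11, KIF18A, KIF22, KIF23 and KIF4A), or 35.7%, against 6.24% of all genes. Among transport kinesins 4 held a CCAAT and 1, KIF5B, a CHR, and among the remaining class 3 held a CCAAT and none a CHR. A motif of E2F factors was searched in the same windows. It was found in 1 of 14 mitotic genes (KIF2B, 7.14%), against 5.63% of all genes, and in no transport or remaining kinesin. The last 100 bases before the start are given below from RefSeq on GRCh38.p14, 5′ to 3′ on the strand of the gene, with CCAAT and CHR matches in capitals (ATTGG and TTCAAA are the same motifs on the other strand). KIF11 (chr10:92593030-92593129, plus strand) and KIF4A (chrX:70290004-70290103, plus strand) stand for genes with a CCAAT followed by a CHR. KIF18B (chr17:44947774-44947873, minus strand) stands for 2 CCAAT boxes, KIF14 (chr1:200620752-200620851, minus strand) for 1, and KIF2C (chr1:44739737-44739836, plus strand) for a gene without a match. The transport kinesins KIF3B (chr20:32277551-32277650, plus strand) and KIF5B (chr10:32056426-32056525, minus strand) are the ones that passed the test upwards. GENCODE annotates the last 19 bases of the KIF2C window, 14 of that of KIF4A and 6 of that of KIF5B as exon of other transcripts.
KIF11: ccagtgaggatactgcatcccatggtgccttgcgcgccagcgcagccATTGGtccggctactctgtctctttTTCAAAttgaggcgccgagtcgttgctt
KIF4A: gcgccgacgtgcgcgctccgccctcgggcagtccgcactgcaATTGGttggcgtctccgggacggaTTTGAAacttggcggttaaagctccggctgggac
KIF18B: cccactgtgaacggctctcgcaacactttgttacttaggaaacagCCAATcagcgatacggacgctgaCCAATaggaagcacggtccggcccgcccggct
KIF14: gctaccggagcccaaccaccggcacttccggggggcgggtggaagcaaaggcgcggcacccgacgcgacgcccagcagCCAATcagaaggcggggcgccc
KIF2C: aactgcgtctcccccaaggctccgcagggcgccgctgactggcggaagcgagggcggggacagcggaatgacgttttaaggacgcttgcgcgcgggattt
KIF3B: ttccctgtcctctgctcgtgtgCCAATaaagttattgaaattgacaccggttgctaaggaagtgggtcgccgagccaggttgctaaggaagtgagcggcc
KIF5B: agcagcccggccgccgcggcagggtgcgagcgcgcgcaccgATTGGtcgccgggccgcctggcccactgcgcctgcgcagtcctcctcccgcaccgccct
With positions counted back from -1 at the base before the start, the CCAAT of KIF11 begins at -53 and its CHR at -28, and those of KIF4A lie at -58 and -34. KIF18B has its CCAAT boxes at -55 and -32 and no CHR. KIF2C has neither motif in its 250 bases. KIF5B holds a CCAAT at -59 and a CHR farther out, at -140, beyond the bases shown. A match is a run of letters and not a measured binding site.

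Genes whose products work with the mitotic kinesins moved in the same direction. All 14 mitotic partners listed were higher in GALNT7 OE cells, with a median log2 fold change of 1.60, where 22.9% of all genes tested were higher. PLK1, the mitotic kinase that KIF20A brings to the central spindle, rose by 2.18 ± 0.06 (SE) on the log2 scale and AURKA, the spindle pole kinase, by 2.14 ± 0.07 (limma adjusted p = 2.2e-06 and 3.22e-06). CENPE, a kinesin of the kinetochore without a KIF symbol, had a mean of 681 ± 327 in control and 2271 ± 304 in OE libraries (SD, n = 3; log2 1.83, limma adjusted p = 0.00299). PRC1, which bundles the midzone together with KIF4A, rose by 1.56 ± 0.05 (limma adjusted p = 4.19e-06). The general proliferation genes MKI67, TOP2A, PCNA, MCM2, CCNB1 and CDK1 were all higher too (6 of 6, median 1.78, against the same 22.9% of all genes), and their summed level was 14261 to 14811 in the control and 41451 to 48392 in the OE libraries. Within that list the G2 and M phase genes CCNB1 and CDK1 rose by 2.04 and 2.18, and the replication genes PCNA and MCM2 by 1.04 and 0.57. The summed level of the mitotic kinesins, without KIFC1, moved with that of the proliferation genes, from 6842 to 7253 in control to 21910 to 23088 in OE libraries. The part of the proliferating share of cells in these changes was not tested.

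Transport kinesins of DU145 cells showed no common direction. KIF5B, the ubiquitous kinesin-1 heavy chain that carries mitochondria and vesicles, had 4970, 4665 and 4656 in control and 7340, 8771 and 8292 in OE libraries. It rose by 0.77 ± 0.07 on the log2 scale (limma adjusted p = 0.000207), a factor of 1.71, and its groups did not overlap. KIF3B, a subunit of the kinesin-2 that works in cilia and in vesicle transport, had 1541, 1531 and 1608 against 2195, 2196 and 2173 (log2 0.49 ± 0.05, limma adjusted p = 0.000286). KIF3A, the partner of KIF3B in that motor, had 182, 384 and 301 against 331, 519 and 658. Its point estimate was larger than that of KIF3B (log2 0.81 ± 0.34), but the groups overlapped and the test was not passed (limma adjusted p = 0.093). Without OE replicate 1, KIF3A passed (log2 1.08, limma adjusted p = 0.0437).

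The minus-end motors among the transport class were lower. KIFC3, which acts in epithelial cells at adherens junctions and in apical transport (chromosome 16, 57758217 to 57863053 on GRCh38), had 5868, 5784 and 6122 in control and 2949, 3081 and 3051 in OE libraries. The replicates of each group agreed closely, and the level fell by 0.97 on the log2 scale with an SE of 0.04 (limma adjusted p = 1.01e-05), a factor of 0.51. KIFC2, a related motor known from neurons, had 765, 1086 and 1012 against 632, 460 and 345 (log2 fold change -1.02 ± 0.23, limma adjusted p = 0.0116). These 2 genes moved against KIFC1, the minus-end motor of mitosis, in the same libraries.

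KIF1A, the kinesin-3 that carries synaptic vesicle precursors, had 58.2, 60.3 and 86.6 in control libraries and 61.1, 8.32 and 11.5 in OE libraries. OE replicate 1 lay within the control range and the other OE libraries far below it, and the test was not passed (log2 fold change -1.82 ± 0.69, limma adjusted p = 0.0697). Without OE replicate 1 the value was -2.66 and the adjusted p 0.00144. KIF13B had 954, 888 and 786 against 676, 949 and 529, with overlapping groups (log2 fold change -0.32, limma adjusted p = 0.245), and without OE replicate 2 it became -0.55 with an adjusted p of 0.0275. KIF16B, an endosome motor, had a log2 fold change of -0.17 (limma adjusted p = 0.336), or -0.32 with an adjusted p of 0.0397 without OE control replicate 3. KIF1C, which carries integrin vesicles and messenger RNAs, was among the most precisely measured, with 5509, 5037 and 5248 against 5603, 5448 and 5424. Its log2 fold change was 0.06 with a 95% interval from -0.05 to 0.17, and the 75th percentile scaling turned its sign (-0.04). KIF1B, a carrier of mitochondria and synaptic vesicle precursors, had 1493, 1581 and 1594 against 1693, 2758 and 1629, without overlap but with a wide spread in the OE libraries (log2 0.34 ± 0.19, limma adjusted p = 0.202). For KIF13A, KIF3C, KIF5C and KIF17 the log2 fold changes lay between -0.30 and 0.36, with adjusted p from limma of 0.243 to 0.879. KIF5A, a neuronal kinesin-1, stayed at 4.77 or less in the 6 libraries and was not tested.

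**Figure D3:**
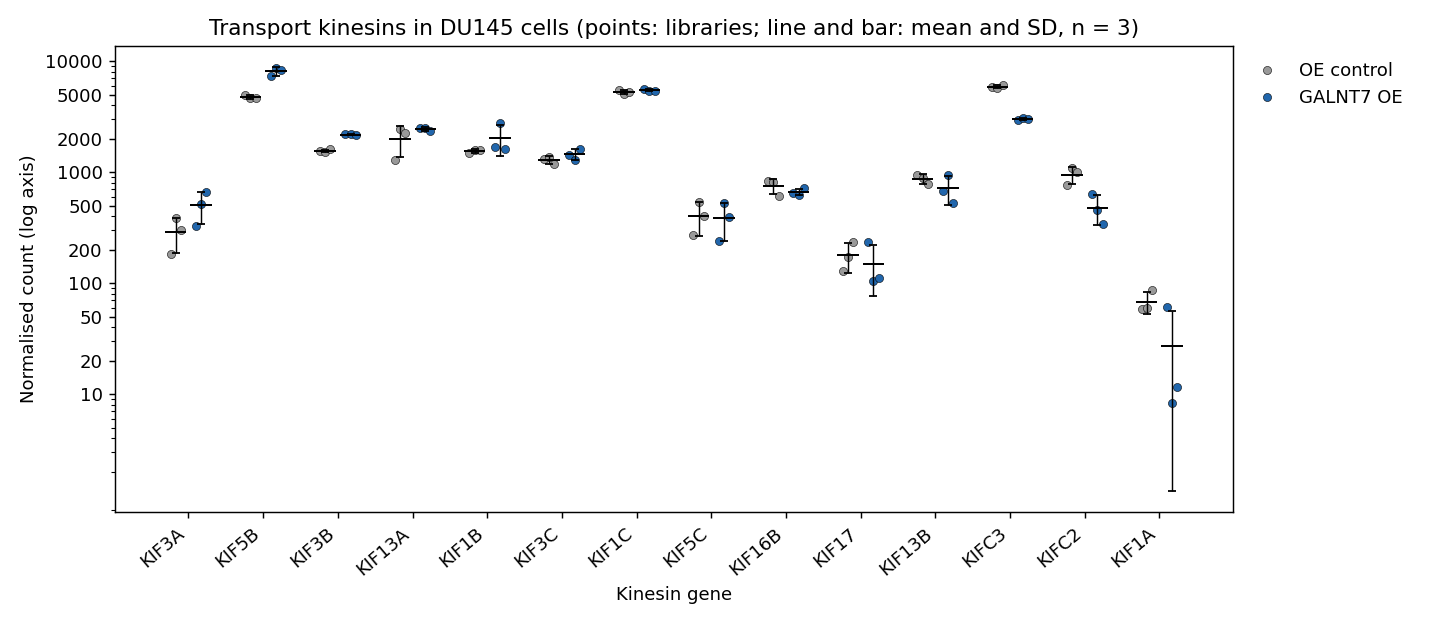
Normalised count of the 14 transport kinesins tested in the 6 DU145 libraries (log axis), with grey points for OE control, blue points for GALNT7 OE, and a line and bar for the mean and SD of 3 libraries. The groups do not overlap in 5 genes: KIF5B, KIF3B and, narrowly, KIF1B (1594 against 1629) are higher and KIFC3 and KIFC2 lower in the OE cells. OE replicate 1 of KIF1A (61.1) lies in the control range.

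Light chains and cargo adaptors, which link these motors to what they carry, were more often lower than higher in DU145 cells. Of 16 listed, 8 were lower and 1 higher, with a median log2 fold change of -0.29, against 20.5% lower and 22.9% higher among all genes tested. MAPK8IP3 and MAPK8IP1, scaffolds that bind kinesin-1, fell by 1.47 and 1.08 on the log2 scale (limma adjusted p = 0.000108 and 0.000369). The kinesin light chain genes KLC3, KLC4 and KLC1 fell by 0.89, 0.76 and 0.29. RHOT2, a mitochondrial anchor for the motor, and FYCO1, an endosome adaptor, fell by 0.62 and 0.59. KIFAP3, which joins KIF3A and KIF3B to their cargo, rose by 0.27 ± 0.07 (limma adjusted p = 0.0159), and KIF5B and KIF3B are the motors of the class that were higher. Transport motors can follow neuronal markers, of which SNAP25 went from 117 to 53.7 and MAP2 from 347 to 225 (log2 fold change -1.08 and -0.65, limma adjusted p = 0.00746 and 0.0302), with RBFOX3 near 0.

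In the remaining class, the changes went both ways in DU145 cells. KIF24, a kinesin-13 of the centriole that restrains cilium formation, had 216, 192 and 247 in control and 468, 499 and 533 in OE libraries (log2 1.20 ± 0.12, limma adjusted p = 0.000277). KIF26B, known from cell adhesion in the developing kidney, had 55.4, 37.8 and 37.3 against 141, 161 and 96.5 (log2 1.58 ± 0.25, limma adjusted p = 0.00254). A further identifier that the same gene list pairs with KIF26B carried more reads (156, 177 and 162 against 373, 444 and 403), and the sum of the 2 rose by 1.36. KIF21A, which inhibits microtubule growth at the cell cortex, had 1071, 1016 and 979 against 1394, 1620 and 1597 (log2 0.59 ± 0.08, limma adjusted p = 0.00113). The groups of these 3 genes did not overlap.

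Lower values were found for KIF12, KIF21B, KIF19 and KIF7. KIF12, a motor of kidney and liver epithelium, had 98.3, 128 and 95.7 in control and 42.1, 63.8 and 45.1 in OE libraries (log2 fold change -1.09 ± 0.22, limma adjusted p = 0.00637). KIF21B, which regulates microtubule dynamics in neurons and lymphocytes, had 177, 204 and 217 against 109, 121 and 131 (log2 fold change -0.72 ± 0.13, limma adjusted p = 0.00471). KIF19, which sets the length of motile cilia, had only 12.4, 18.4 and 21.2 against 5.01, 2.77 and 4.2 and passed the minimum mean through its control libraries (log2 fold change -1.87 ± 0.38, limma adjusted p = 0.00708).

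The calls of KIF7 and KIF9 were less firm. KIF7, a ciliary regulator of Hedgehog signalling, had 215, 213 and 298 in control and 141, 189 and 105 in OE libraries (log2 fold change -0.76 ± 0.24, limma adjusted p = 0.0413). The call was lost on leaving out any control library, OE replicate 1 or OE replicate 3, with adjusted p of 0.0678 to 0.123, and when the fit was blocked on replicate number (limma adjusted p = 0.082). KIF9, a motor of sperm flagella, had 22, 30.7 and 26.2 against 42.1, 40.7 and 43 (log2 0.67 ± 0.21, limma adjusted p = 0.037). It was lost without control replicate 1 or 3 or any OE library, with adjusted p of 0.0794 to 0.103, and under the block (0.0788). Gene KIF9 overlaps an antisense gene, KIF9-AS1, and KLHL18, both on the opposite strand, and the libraries were stranded. KIF2A, the kinesin-13 of spindle poles and neurites, had 956, 1185 and 636 against 1344, 1524 and 1246. Gene KIF2A overlaps IPO11 on the same strand. Its groups did not overlap but the test was missed narrowly (log2 0.61 ± 0.22, limma adjusted p = 0.0594), and it passed without OE control replicate 2 (adjusted p = 0.021) and under the block (0.0206), as did KIF3A (0.0139). KIF26A and KIF27 had log2 fold changes of -0.25 and -0.31 (limma adjusted p = 0.296 and 0.366), and KIF6 and KIF25 were below the minimum mean.

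Levels can be compared between genes only after dividing by exon length, and only within a cell line, since the tables were scaled separately. In OE control DU145 cells the order by mean normalised count per kb of exon began with KIF5B (811 ± 30.4, SD, n = 3), KIFC3 (617 ± 18.3) and KIF1C (614 ± 27.6), and the last 2 did not differ beyond their spread. KIF3B (256 ± 6.85) and then KIF11 (233 ± 1.76) and KIF20A (219 ± 15.3) followed, and KIF11 and KIF20A did not differ beyond the SD of KIF20A. In GALNT7 OE cells KIF5B was still first at 1384 ± 124 per kb, but KIF20A (853 ± 19.5) and KIF11 (725 ± 43.7) now came before KIF1C (640 ± 11.3) and KIF23 (595 ± 15.7), and KIFC3 had dropped to 315 ± 7.23. Sums per kb leave out KIFC1 and the further identifier of KIF26B, and the length covers all annotated exons of a gene. In these sums the mitotic class made up 27.2% to 28.6% of the kinesin family in the control libraries and 51.0% to 52.3% in the OE libraries. The transport class made up 62.1% to 64.5% and 41.0% to 41.6%. The transport sum itself was 3213 to 3345 per kb in control and 3533 to 3820 in OE libraries. The mitotic sum was 1395 to 1481 in control and 4480 to 4684 in OE libraries.

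**Figure D4:**
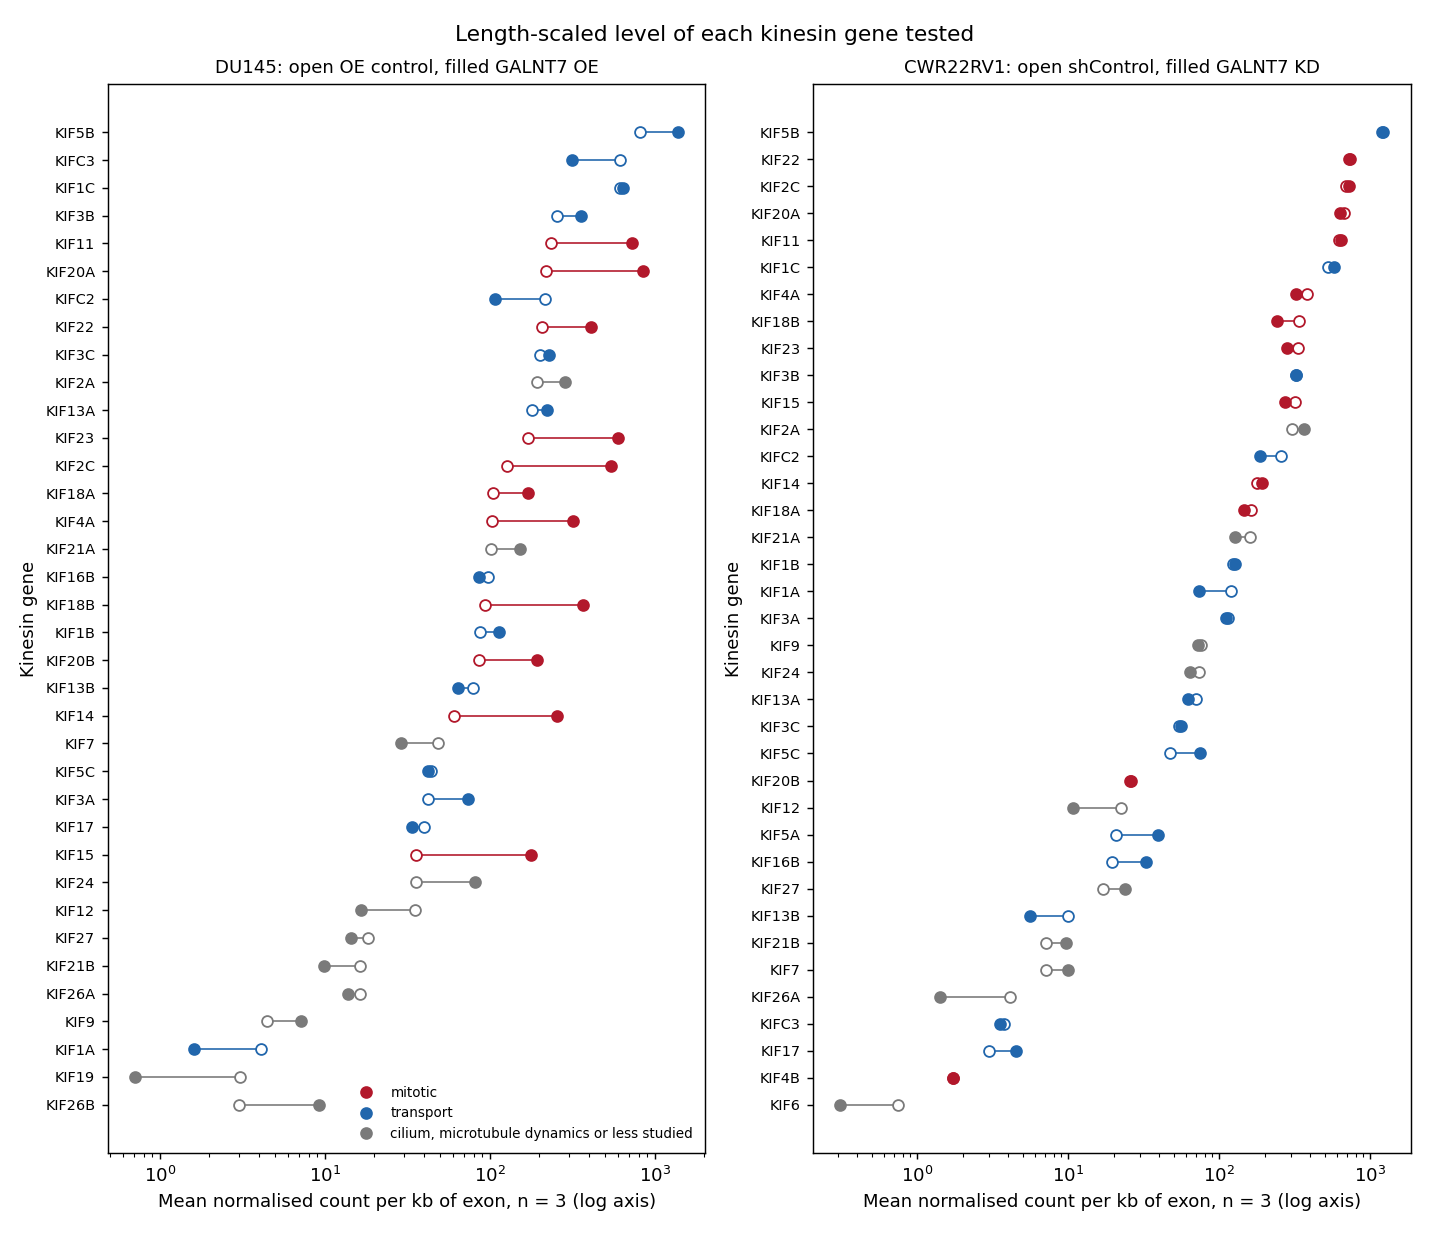
Mean normalised count per kb of exon (log axis, n = 3) of each kinesin gene tested in DU145 cells (left) and CWR22RV1 cells (right), ordered by the control level, with open points for control and filled points for GALNT7 OE or KD, in red for mitotic, blue for transport and grey for the remaining members. KIF5B is highest in both lines, and the red lines are long in DU145 cells, where KIF11 goes from 233 to 725, and short in CWR22RV1 cells, where it goes from 621 to 645.

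In CWR22RV1 cells with lowered GALNT7, few kinesins changed. Of 37 tested, 1 was higher and 2 were lower, which is 8.11% against 9.06% of all 17906 genes tested (5.28% higher and 3.79% lower), so the share called was near the background. The median log2 fold change of the family was -0.04, and that of all genes -0.01. The groups did not overlap in 13 of the 37 genes, against 32.5% of all genes tested. Of the mitotic kinesins 1 of 12 was lower (median -0.08), of the transport kinesins 1 of 15 was higher and 1 lower (median 0.13, which turned to -0.023 with edgeR, -0.0205 with DESeq2, -0.0561 without shControl replicate 3 and -0.0227 without KD replicate 2), and 0 of 10 in the remaining class passed (median -0.13), with limma as with edgeR and DESeq2, although 4 of the 10 had an unadjusted limma p under 0.05. KIF2B, KIF19, KIF25 and KIF26B were below the minimum mean.

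KIF18B was the mitotic kinesin that passed the test in these cells. Its normalised counts were 1604, 1478 and 1641 in shControl and 1117, 1113 and 1146 in GALNT7 KD libraries, and it fell by 0.48 on the log2 scale (SE 0.06, limma adjusted p = 0.0084), a factor of 0.71. The 3 KD libraries lay close together (SD 18.4) and below all controls. KIF18B lies on chromosome 17 from 44924709 to 44947711 on GRCh38.

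The other mitotic kinesins were closer to their controls. KIF4A had 1782, 1772 and 1643 against 1491, 1545 and 1364, with groups that did not overlap and a log2 fold change of -0.24 ± 0.07 (limma adjusted p = 0.0834); DESeq2 gave an adjusted p of 0.0213. KIF15 had 1616, 1886 and 1562 against 1334, 1539 and 1430 (log2 fold change -0.23 ± 0.09, limma adjusted p = 0.176), again without overlap. KIF23 had 1997, 2419 and 2191 against 2000, 1721 and 1855, where the highest KD library reached the lowest control (log2 fold change -0.24 ± 0.09, limma adjusted p = 0.15). For KIF11 the 95% interval of the log2 fold change ran from -0.12 to 0.22, for KIF2C from -0.11 to 0.24, for KIF14 from -0.06 to 0.26, for KIF22 from -0.20 to 0.12 and for KIF20A from -0.28 to 0.09. In these 5 genes a change as large as that of KIF18B lay outside the interval. KIF18A had an estimate of -0.15 and KIF20B, at only 179 in the control mean, one of -0.03. KIFC1, read as the sum of its 2 identifiers, had 2217, 2345 and 2301 against 2208, 2058 and 2222 (log2 fold change -0.08 ± 0.06, limma adjusted p = 0.411).

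**Figure D5:**
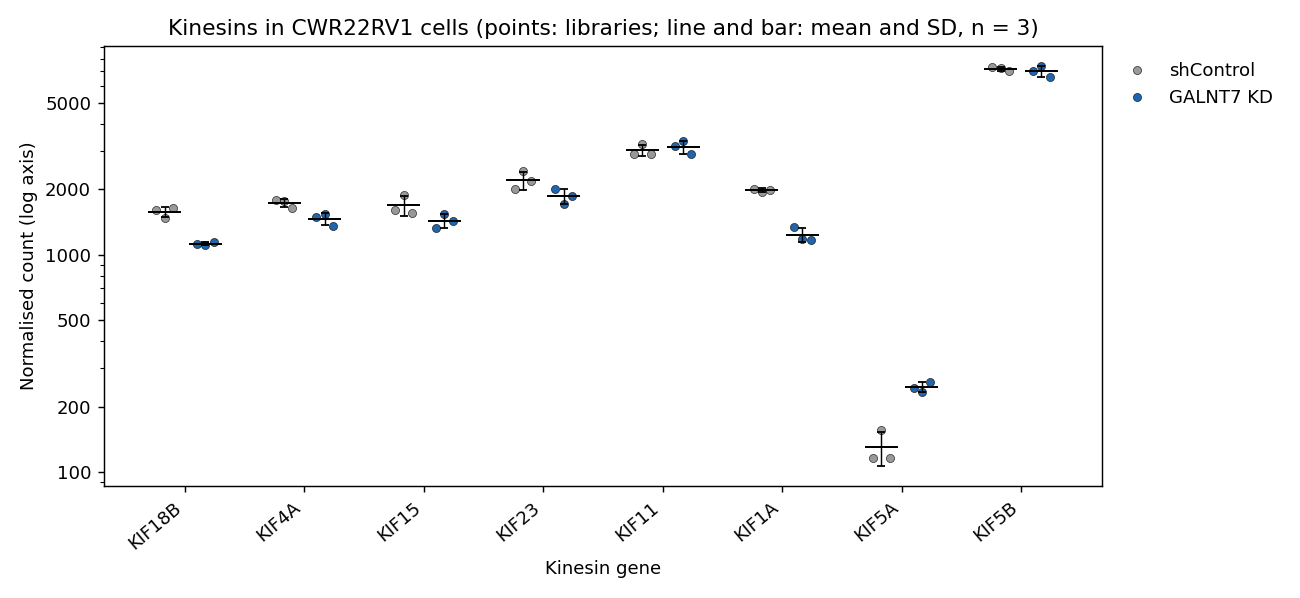
Normalised count of selected kinesins in the 6 CWR22RV1 libraries (log axis), with grey points for shControl, blue points for GALNT7 KD, and a line and bar for the mean and SD of 3 libraries. KIF18B and KIF1A are lower and KIF5A is higher in every KD library than in any control library, while KIF11 and KIF5B overlap.

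Among the partners of the mitotic kinesins, 4 of 14 were lower in GALNT7 KD cells, with a median log2 fold change of -0.14, against 3.79% of all genes tested. PRC1, the midzone bundler, fell by 0.50 (limma adjusted p = 0.00334) and RACGAP1, which forms centralspindlin with KIF23, by 0.38 (limma adjusted p = 0.0103). PSRC1 and GTSE1, regulators of spindle microtubules, fell by 0.36 and 0.32 (limma adjusted p = 0.0257 and 0.0322). The 6 proliferation genes had limma adjusted p from 0.126 to 0.937, and their summed level overlapped between shControl (34745 to 41756) and KD libraries (33269 to 36764).

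The transport kinesins that passed in CWR22RV1 cells are both best known from neurons. KIF1A had 2013, 1942 and 1994 in shControl and 1340, 1187 and 1173 in GALNT7 KD libraries and fell by 0.69 on the log2 scale (SE 0.07, limma adjusted p = 0.00342), with each KD library below each control. KIF5A had 117, 156 and 116 against 245, 235 and 259 and rose by 0.93 ± 0.15 (limma adjusted p = 0.0147). That call was lost without shControl replicate 1 (adjusted p = 0.0611), without shControl replicate 3 (0.057) or without KD replicate 1 (0.0634), while the log2 value stayed between 0.86 and 1.07. KIF5A lies on chromosome 12 (57549998 to 57586632), whose 922 genes tested had a median log2 fold change of -0.28, against -0.01 over all genes. KIF21A, RACGAP1 and the dynactin gene DCTN2 lie on the same chromosome, and KIF21A had a log2 fold change of -0.35 (limma adjusted p = 0.213). The part of that chromosome-wide shift in these values was not tested. Of the neuronal markers, RBFOX3 was below 2 in each library and MAP2 went from 198 to 327 (log2 0.75, limma adjusted p = 0.0811). SNAP25 fell from 13.6 to 0.967 (log2 fold change -3.20, limma adjusted p = 0.032) but passed the minimum mean only through its shControl libraries.

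KIF5B and KIF3B, which were higher in the DU145 comparison, had 95% intervals of -0.16 to 0.08 and of -0.17 to 0.13 around their log2 fold changes in CWR22RV1 cells. KIFC3, with a mean of 5925 in DU145 controls, was at 22.4, 10.6 and 75.1 in shControl and 21.3, 38.4 and 41.4 in KD libraries. For KIF13A, shControl replicate 3 (201) lay far below replicates 1 and 2 (1086 and 1074), and the 95% interval of the log2 fold change ran from -1.42 to 1.67. Of the light chains, KLC3 rose by 0.93 on the log2 scale (limma adjusted p = 0.0474). In the remaining class KIF26A had 31.7, 27.4 and 23.8 against 13.5, 5.33 and 9.63, the lowest log2 fold change among the 37 kinesins tested in these cells (-1.52 ± 0.37, limma adjusted p = 0.0518). KIF12 had 84.9, 59.2 and 59.5 against 29, 21.3 and 47.2 (log2 fold change -1.09 ± 0.32, limma adjusted p = 0.0844), and without KD replicate 3 it was -1.39 with an adjusted p of 0.0435.

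In shControl CWR22RV1 cells the mitotic class, again summed without KIFC1, already made up 54.2% to 56.8% of the family per kb of exon, and in KD cells 53.8% to 54.8%. The order by normalised count per kb began with KIF5B (1221 ± 27.4), followed by KIF22 (738 ± 26.7), KIF2C (694 ± 64.2), KIF20A (670 ± 4.8) and KIF11 (621 ± 37.9). KIF2C differed from each of its neighbours by less than its own SD. KIF1C followed at 521 ± 6.44. Both fits covered 34 kinesins, of which 1 was called in each fit (2.94%, against 5.48% of the 16124 genes in both fits), namely KIF18B, lower with less GALNT7 and higher with more. Opposite calls of this kind made up 2.88% of the 16124 genes, so the share among the kinesins was near the background. The comparisons do not share libraries, but they differ in cell line as well as in the direction of the GALNT7 change, and the difference between them was not tested.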

How the data were processed

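RNA from 12 libraries (3 biological replicates per group) was sequenced after TruSeq stranded mRNA preparation. The authors deposited normalised counts, a signal in which the reads of each gene were divided by 1 size factor for the library, in 1 table per cell line. The submitters' processing notes name hg38, FastQC, Salmon, DESeq2 and R 3.5.3 without role or order. Dividing each deposited value by the smallest value above 0 of its library gave whole reads for 100% of values (tolerance 0.01), and depth was 18364512 to 22264533 in CWR22RV1 and 21628718 to 24356910 in DU145 cells. Replicates differed by more than sampling noise (mean chi-square per gene 9.44 to 26.0). Nothing says that replicates came from separate transductions, so p-values measure the spread between these libraries.

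Genes with a mean of at least 5 over the 6 libraries of a line were tested with limma 3.58.1 (R 4.3.3, eBayes with trend) on log2(normalised count + 1), which understates changes of low genes, with Benjamini-Hochberg adjustment over all genes and a threshold of 0.05. Medians are over members tested. Counts were simulated with large changes only and with a fixed dispersion that was not fitted to these libraries. In them, 190 of 193 changed genes were recovered for the knockdown (2 false calls among 17764 genes) and 188 of 196 for the overexpression (8 among 18517). The share of changed genes recovered from the measured libraries, small changes included, was not tested. Symbols, GRCh38 positions and exon lengths came from GENCODE 29, which holds 94.4% of the identifiers, and promoters from RefSeq (GRCh38.p14). Genes named were all kinesins, GALNT7, fixed lists of partners, adaptors, dynein and proliferation genes, and cell type markers. Members and lists were chosen with earlier results of these data known. The summed marker levels in shControl, KD, OE control and OE libraries, in that order, were 22416 to 22860, 20827 to 21545, 24152 to 25908 and 22524 to 24877 for epithelial markers; the luminal list is not reported here. For fibroblast markers they were 43.9 to 85.8, 62.9 to 111, 289 to 422 and 55.4 to 155, for leukocyte markers 104 to 119, 117 to 174, 2581 to 2758 and 985 to 1121, and for endothelial markers at most 51.4. Alternatives were other pseudocounts, filters, 75th percentile scaling, no trend, the replicate block, leaving out each library, and edgeR 4.0.16 and DESeq2 1.42.0 on the recovered reads.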

Additional observations from a re-analysis of the deposited data

How the results depend on the processing

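In the knockdown 2 of 3 calls, and in the overexpression 21 of 23, stayed past the threshold under all alternatives that tested them. Their direction stayed the same, and the exceptions were KIF5A, KIF7 and KIF9. With a minimum mean of 20, KIF19 was not tested in the overexpression, and 22 kinesin calls were left. KIF7 also lost its call with no filter on low values (adjusted p = 0.0504) and without the trend (0.0692), and KIF9 with no filter (0.1003), with 75th percentile scaling (0.0639) and with DESeq2 (0.141). In the knockdown, DESeq2 called 2 mitotic kinesins, and the transport median was -0.023 with edgeR and -0.0205 with DESeq2. Those tools turned the sign of 2 genes that were not called, KIF13A (-0.19 and -0.19) and KIFC3 (-0.10 and -0.10), and KIF26A passed with a pseudocount of 5 (adjusted p = 0.0432) and with 75th percentile scaling (0.04997). In the overexpression, the mitotic and transport medians were 1.88 and -0.0759 with no filter, which also called KIF4B and so 12 mitotic kinesins, and 1.71 and -0.11 with 75th percentile scaling, which also gave KIF1C -0.0377, and DESeq2 called KIF2A (0.0245) and KIF3A (0.0441). The cause of these shifts was not tested. On leaving out 1 library at a time, transport calls in the knockdown ranged from 1 to 2, mitotic medians from -0.17 to -0.0555 and transport medians from -0.0561 to 0.13, and the overexpression medians from 1.71 to 1.87 and from -0.0262 to 0.11. Genes that were not called and changed sign in the knockdown were KIF1B (-0.10 to 0.22), KIF22 (-0.0781 to 0.0223), KIF3C (-0.20 to 0.54), KIF3B (-0.0457 to 0.0244), KIF17 (-0.10 to 1.14), KIF3A (-0.15 to 0.0802), KIF13A (-0.68 to 0.53), KIF20B (-0.14 to 0.0393), KIFC3 (-0.34 to 1.02), KIF5B (-0.079 to 0.0022) and KIF4B (-0.26 to 0.25), and in the overexpression KIF5C (-0.34 to 0.23). Over all genes, leaving out 1 library gave 525 to 1332 calls in the knockdown, against 1623 with all libraries, and 6749 to 7610 in the overexpression. Without the trend the knockdown calls over all genes were 996, and with DESeq2 2642. Deviations of same-numbered libraries had correlations of -0.011 to 0.075, which are too weak to decide whether the numbers pair them. A replicate block lowered the calls over all genes from 1623 to 1002 and from 8132 to 7405, left 3 and 23 kinesin calls, and each library correlated best with its own number in 1 of 3 and 3 of 3 pairs. Genes below a mean of 5 entered only the fits with no filter, where KIF26B in the knockdown had -1.71 (adjusted p = 0.255), and the wide intervals of KIF13A, KIF17 and KIFC3 in CWR22RV1 cells leave large changes undetectable.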

Other observations

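Cytoplasmic dynein and dynactin, which move cargo opposite to most kinesins, were followed beside the family, with 22 of 23 listed genes measured. In DU145 cells 8 of 21 tested were higher and 2 lower with raised GALNT7, with a median log2 fold change of 0.18, against 22.9% and 20.5% of all genes. DYNC1LI1, a light intermediate chain, rose by 0.69 ± 0.08 (SE, n = 3 per group) and DCTN3, a dynactin subunit, by 0.58 ± 0.07 (limma adjusted p = 0.000521 and 0.000575). DYNLL2, a light chain, fell by 0.54 (limma adjusted p = 0.000141), while its close relative DYNLL1 rose by 0.43 (limma adjusted p = 0.000395). The heavy chain DYNC1H1 had a log2 fold change of 0.05 with a 95% interval from -0.35 to 0.44. The remaining members that passed were DYNLT3, DCTN2, DCTN6, ACTR1A and PAFAH1B1, which were higher by 0.24 to 0.33, and ACTR1B, which was lower by a log2 fold change of -0.23.

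In CWR22RV1 cells 1 of 22 was higher and 1 lower with lowered GALNT7, a share of 9.09% that is near the 9.06% of all genes tested. PAFAH1B1, which binds dynein and helps it to carry large loads, rose by 0.30 ± 0.06 (limma adjusted p = 0.0285), and DYNLT3, a light chain, fell by 0.43 (limma adjusted p = 0.0176). PAFAH1B1 was thus higher in both comparisons, with 0.33 in DU145 cells. DCTN2, which lies on chromosome 12 with its median log2 fold change of -0.28 in the knockdown, and ACTR1A had log2 fold changes of -0.41 and 0.23 in CWR22RV1 cells (limma adjusted p = 0.0727 and 0.0724).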
